A study of Mus musculus with 10 samples.

Results

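The metallothionein genes Mt1, Mt2 and Mt3 were described across the cell classes of the inner ear of old mice, as 3 of the 32285 genes of the count tables, taken by their gene symbols. The remaining family member in the tables, Mt4, had 1 unique molecular identifier (UMI, a tag that counts each captured transcript once) in all libraries together and is not described further. The study made droplet-based single-cell RNA libraries of the cochlear and the vestibular sensory epithelia of wild-type CBA/J mice, a strain that shows its inner ear decline late in life. All mice were 22 months old per the labels and untreated, both sexes were used, and each library pooled 7 to 8 mice, so a library is an average over animals. There were 5 libraries an organ. Replicates 1 and 2 of each organ held the same cells, so that n was 4 an organ (replicates 1, 3, 4 and 5). As young mice are not part of what was analysed here, no value below is a change with age.

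Metallothioneins are small cysteine-rich proteins that bind zinc and copper, and also cadmium, through clusters of thiolate bonds. They buffer free zinc, hand it to other proteins and take up reactive oxygen species. Mt1 and Mt2 are made in most tissues and are induced by metals through the zinc-sensing factor MTF1, by oxidants and by glucocorticoids. Mt3, first known as growth inhibitory factor, is mainly a gene of the nervous system and responds little to metals. Hair cells (HCs), which turn movement into receptor current, are known to be sensitive to oxidative stress and to ototoxic drugs, while supporting cells (SCs) surround them and glia wrap the nerve fibres.

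The 3 genes lie in a row on the plus strand of chromosome 8. In GRCm38 with GENCODE M21 annotation, Mt3 (ENSMUSG00000031760) spans 94152607 to 94154146, Mt2 (ENSMUSG00000031762) spans 94172664 to 94173568 and Mt1 (ENSMUSG00000031765) spans 94179082 to 94180327. No annotated gene lies between them, over 18517 bases from Mt3 to Mt2 and 5513 bases from Mt2 to Mt1. Each has 3 exons. The antisense gene Gm45774 overlaps Mt2, and whether the counting used strand is not given in the sources used here. The coding sequences are shown because the family is defined by them. Codons for cysteine are in capitals, and each gene has 20 of them in 61 (Mt1, Mt2) or 68 (Mt3) codons.
Mt1: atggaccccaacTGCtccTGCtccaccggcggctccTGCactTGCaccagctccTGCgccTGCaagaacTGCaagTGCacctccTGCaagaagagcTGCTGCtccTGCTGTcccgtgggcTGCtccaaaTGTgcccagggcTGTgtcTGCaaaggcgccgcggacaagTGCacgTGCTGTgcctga
Mt2: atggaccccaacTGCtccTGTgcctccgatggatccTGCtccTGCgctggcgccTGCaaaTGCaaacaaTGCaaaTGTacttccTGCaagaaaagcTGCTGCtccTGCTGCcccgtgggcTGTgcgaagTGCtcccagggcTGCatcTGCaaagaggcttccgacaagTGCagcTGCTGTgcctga
Mt3: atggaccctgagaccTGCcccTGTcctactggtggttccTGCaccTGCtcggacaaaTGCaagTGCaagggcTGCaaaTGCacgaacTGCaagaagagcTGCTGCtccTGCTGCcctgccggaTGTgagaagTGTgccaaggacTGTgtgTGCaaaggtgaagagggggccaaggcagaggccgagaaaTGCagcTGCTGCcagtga
Over the aligned coding sequence Mt1 and Mt2 were 79.6% identical, Mt1 and Mt3 68.9%, and Mt2 and Mt3 69.2%. The longest run of bases shared by their transcripts was 20 between Mt1 and Mt2, 27 between Mt1 and Mt3 and 20 between Mt2 and Mt3, so that reads longer than such a run can be told apart.

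The 250 bases upstream of each RefSeq start site are shown because Mt1 and Mt2 are the classical metal-induced genes of the family. These starts are not all those of the GENCODE spans above: the Mt1 window runs past 94179082, and the Mt2 window ends before 94172664. The sequences are those of RefSeq on GRCm38.p6, plus strand: chr8:94178839-94179088 for Mt1, chr8:94172368-94172617 for Mt2 and chr8:94152357-94152606 for Mt3. Capitals mark the core of the metal response element, searched as TGCACNC or TGCGCNC on both strands, and the core of the antioxidant response element, searched as TGACNNNGC.
Mt1 promoter: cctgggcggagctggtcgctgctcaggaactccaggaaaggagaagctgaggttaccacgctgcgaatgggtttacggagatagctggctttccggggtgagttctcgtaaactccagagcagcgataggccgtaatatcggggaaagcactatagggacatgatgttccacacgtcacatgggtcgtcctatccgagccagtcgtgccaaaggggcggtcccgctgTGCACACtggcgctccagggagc
Mt2 promoter: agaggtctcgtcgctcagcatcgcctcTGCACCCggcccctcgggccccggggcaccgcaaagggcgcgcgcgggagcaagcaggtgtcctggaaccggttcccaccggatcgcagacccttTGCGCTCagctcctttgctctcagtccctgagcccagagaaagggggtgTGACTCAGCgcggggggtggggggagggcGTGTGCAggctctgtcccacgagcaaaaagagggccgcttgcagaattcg
Mt3 promoter: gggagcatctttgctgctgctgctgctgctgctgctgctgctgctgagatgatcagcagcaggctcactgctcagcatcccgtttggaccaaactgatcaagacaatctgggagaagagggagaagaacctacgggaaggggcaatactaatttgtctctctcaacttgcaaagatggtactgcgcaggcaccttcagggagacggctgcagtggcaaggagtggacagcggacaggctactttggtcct
The Mt1 window held 1 metal response core, TGCACAC, at 23 to 17 bases before the start. The Mt2 window held 3, of which 1 was on the minus strand, and also 1 antioxidant core, TGACTCAGC. The Mt3 window held neither. Among 32851 promoter windows of this length, 21.4% held at least 1 metal response core, 5.17% held 2 or more, and 10.2% held an antioxidant core. The counts depend on where the window ends. Over windows of 300 bases, which begin with the 250 shown and run past the RefSeq start, Mt1 held 3 metal response cores, Mt2 4 and Mt3 1. Of all promoters, 25.7% held at least 1 at that length. These matches are descriptions of letters and are not measured binding sites.

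After filtering, 7272 cochlear and 10424 vestibular cells were kept, 571 to 5438 a library, with a median of 1889 to 3298 UMIs a cell. Clusters were named only where markers of a class were enriched, and otherwise by their 2 leading genes. The metallothioneins took no part in the clustering. A level is given as counts per 1000000 (CPM), that is the UMIs of a gene per 1000000 UMIs of the cells of a class in a library. As UMIs count the 3′ ends of transcripts, a level is not scaled by gene length. Replicate 3 held 5070 of the cochlear cells and stood apart: over all barcodes its Mt3 level was 321 CPM, against 106 to 143 CPM in the other 3 cochlear libraries, and among 18 cochlear classes it was the highest library for Mt1 in 12, for Mt2 in 12 and for Mt3 in 15. Results that rest on it are given with and without it.

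In the vestibule, Mt1 was the most abundant member in 18 of 19 classes by its mean, and its mean level ran from 28.6 CPM in B lineage cells to 3075 CPM in myelinating glia. The glia, marked by myelin genes, held 3351, 2906 and 2968 CPM of Mt1 in replicates 3, 4 and 5, on 20, 23 and 43 cells. Their Mt2 levels were 335, 334 and 277 CPM. Their Mt3 levels were 2202, 2803 and 3354 CPM. The lowest glial library exceeded every library of the other 18 classes with 3 or more libraries, for Mt1, Mt2 and Mt3. At 1000 UMIs a cell, to which each cell was thinned to remove differences in depth, 82.6% of the glia (95% exact binomial interval 72.9 to 89.9%) had a UMI of Mt1 and 87.2% one of Mt3.

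Marginal or dark cells, the epithelium that secretes potassium into the endolymph, were the vestibular class in which Mt3 exceeded Mt1 in every library. Mt3 stood at 1505, 1312, 1600.2 and 1702 CPM in replicates 1, 3, 4 and 5, on 13, 76, 23 and 11 cells, and the 4 libraries did not overlap with any of these classes. The glia lay above them. In replicate 5, 51 of the 76 Mt3 UMIs came from 1 cell, and the level without it was 1139 CPM. Mt1 in these cells was 797, 703, 881 and 672 CPM, and Mt2 was 22.4 to 62 CPM. Melanocytes or intermediate cells, pigmented cells, held 2429, 841, 639 and 683 CPM of Mt1. The value of replicate 1 rested on 1 of its 12 cells, which held 69 of 82 UMIs, and was 741 CPM without that cell. A cluster led by Emilin2 and Cavin2 reached 736, 641, 1163 and 1063 CPM of Mt1.

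Vestibular HCs (vHCs) followed, with Mt1 at 739.6, 669, 657 and 547 CPM in replicates 1, 3, 4 and 5, a mean of 653 ± 79.8 (SD, n = 4), on 197, 800, 474 and 308 cells. Mt2 in vHCs was 131, 116, 90.5 and 91.6 CPM. Mt3 was 56, 38.6, 40.3 and 50.9 CPM. All 4 libraries lay close together for each gene, in the fixed order Mt1, Mt2, Mt3. Below the vHCs came macrophages, with 534, 672, 483 and 173 CPM of Mt1, and fibrocytes, with 185, 178, 122 and 114 CPM. Blood lineages made up the lowest classes: Mt1 was 50.7, 18.2 and 17 CPM in B lineage cells, 58.5, 17.9 and 24.9 CPM in granulocytes, and 64, 62.9 and 0 CPM in T or NK cells. Free RNA in the droplets can add UMIs to every class, and T or NK cells serve below as a reference for it. In the vestibule they were not the lowest class: mean Mt3 was 28.1 CPM in them, 6.07 CPM in granulocytes and 0 CPM in B lineage cells. No B lineage cell of 231 had an Mt3 UMI, which at a median of 2296 UMIs a cell allows up to 1.30% of cells with a UMI and sets no limit on cells that express the gene.

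**Figure D1:**
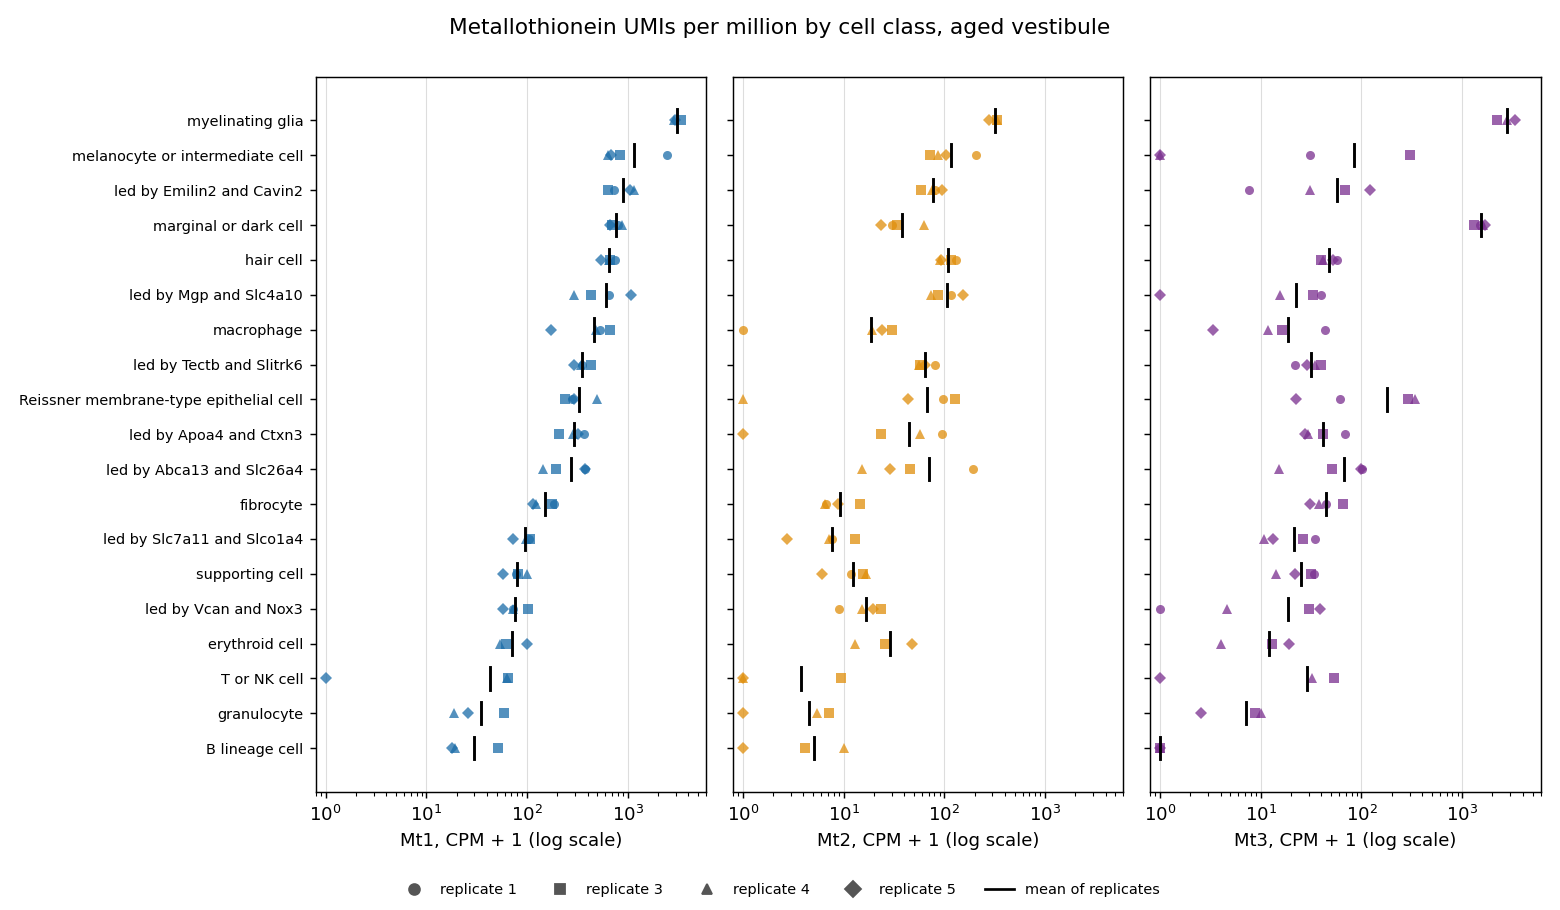
Levels of Mt1, Mt2 and Mt3 in vestibular cell classes with 3 or more libraries, as CPM + 1 on a log axis, with 1 point per library and a bar at the mean. Among these classes myelinating glia stood highest for all 3 genes, Mt3 was high in glia and in marginal or dark cells (mean 1529.8 CPM), and HCs held 653 CPM of Mt1 on average.

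Neighbouring classes in these orders mostly could not be told apart. Of 18 pairs of neighbours in the vestibular order, the means differed by more than the larger SD of the pair in 4 for Mt1, 1 for Mt2 and 3 for Mt3. For Mt1, 2 of these 4 pairs did not overlap by library. They were glia over melanocytes or intermediate cells, and fibrocytes over a cluster led by Slc7a11 and Slco1a4. The other pairs, marginal or dark cells over vHCs and a cluster led by Abca13 and Slc26a4 over fibrocytes, overlapped by library. Of 17 cochlear pairs the means differed by more than this SD in 0 for Mt1, 0 for Mt2 and 1 for Mt3. That pair was neurons over a cluster led by Fxyd2 and Kcnk2.

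In the cochlea, neurons were the class with most Mt3 among those with 3 or more libraries. They held 658, 1023, 910.4 and 1932 CPM in replicates 1, 3, 4 and 5, on 11, 258, 18 and 12 cells. The lowest neuronal library was above every library of the other 17 classes. Mt1 in the same neurons was only 101, 193, 61.8 and 133 CPM, and Mt2 was 0, 21.3, 0 and 4.15 CPM, so that Mt3 UMIs outnumbered those of Mt1 by 6.13 to 1, or by 13.7 to 1 (725 against 53 UMIs) without replicate 3. Myelinating glia could be measured in replicate 3 alone, on 47 cells, with 3169 CPM of Mt1, 531 CPM of Mt2 and 2395 CPM of Mt3, and no replicate check. In this cluster the myelin gene Mbp was enriched, but Sox10, a transcription factor of Schwann cells, was not.

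Among the same 18 classes, mean Mt1 was highest in the cluster led by Fxyd2 and Kcnk2, with 708, 1349.5, 1222 and 1424 CPM, and in Reissner membrane-type epithelial cells, with 1274, 983, 939.7 and 401 CPM. Macrophages held 846, 626, 257 and 369 CPM. In replicate 1, 46 of the 72 macrophage UMIs of Mt1 came from 1 cell, and the level without it was 351 CPM. Cochlear HCs (cHCs) stood at 72.4, 466, 209.5 and 321 CPM of Mt1, on 26, 81, 14 and 32 cells, a mean of 267 ± 167 (SD, n = 4). Their Mt2 levels were 24.1, 129, 76.2 and 102 CPM, and their Mt3 levels 12.1, 91.9, 66.7 and 46.9 CPM. Replicate 1 was lowest and replicate 3 highest for each of the 3 genes, and the spread between libraries was wider than in vHCs. Inner HCs passed the minimum of 10 cells only in replicate 3, where 34 cells held 466 CPM of Mt1, 127 of Mt2 and 78.7 of Mt3. A further 69 cHCs carried 5 inner HC markers but had SC markers such as Otog among their leading genes. These cells, with a median of 15664 UMIs, were set aside and left out of the cHC levels and ratios. Their Mt1 was 135, 252, 91.2 and 75.9 CPM in replicates 1, 3, 4 and 5, on 19, 29, 9 and 12 cells. Outer HCs held 54.7, 393 and 84.8 CPM of Mt1 in replicates 1, 3 and 5, so that the 2 HC types could be set side by side only in replicate 3 (466 and 393 CPM) and were not tested.

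**Figure D2:**
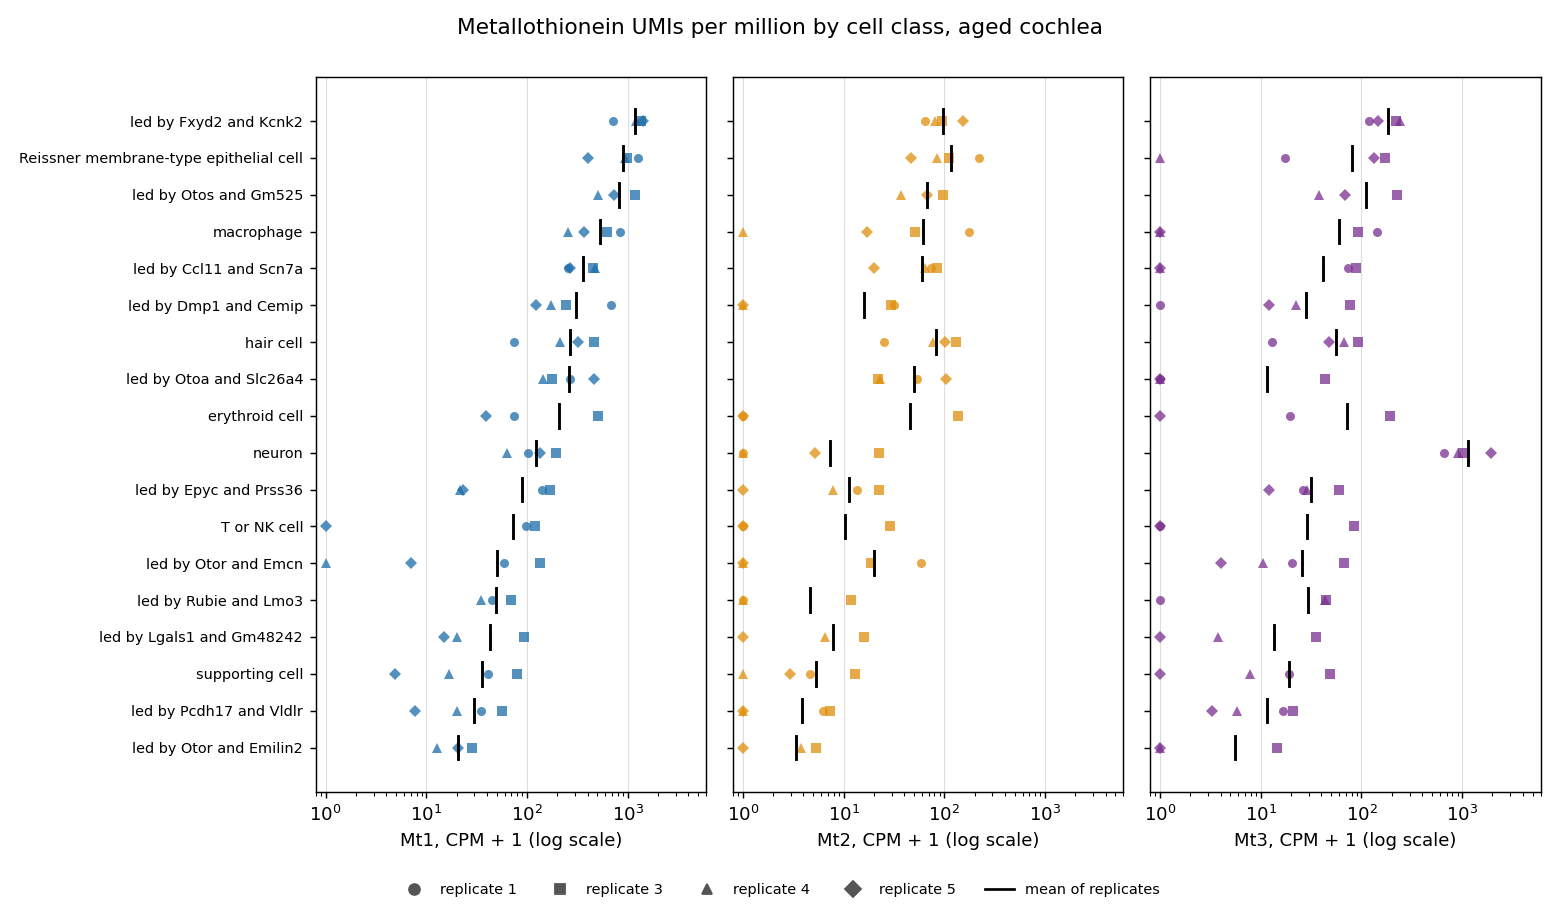
Levels of Mt1, Mt2 and Mt3 in cochlear cell classes with 3 or more libraries, as CPM + 1 on a log axis, with 1 point per library and a bar at the mean. Among these classes neurons stood highest for Mt3 (mean 1131 CPM) but not for Mt1 (mean 122 CPM), and points of replicate 3 were often the highest of a class.

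HCs were then compared with the SCs of the same libraries. In the vestibule, SCs held 76.2, 80.9, 99.8 and 57 CPM of Mt1 in replicates 1, 3, 4 and 5. The lowest vHC library was thus well above the highest SC library. The Mt1 level of vHCs was 6.99-fold that of SCs (log2 difference 2.81 ± 0.20 SE, edgeR adjusted p = 4.29e-12), higher in 4 of 4 libraries, where 58.8% of the 9231 genes tested passed at 0.05, 29.4% higher and 29.5% lower in vHCs. Mt2 was 10.9, 14.6, 15.5 and 5.18 CPM in SCs and did not overlap with vHCs either (7.05-fold, log2 2.82 ± 0.27 SE, edgeR adjusted p = 1.03e-09). Mt3 was 32.7, 30.3, 13.3 and 20.7 CPM in SCs, below all 4 vHC libraries, but the difference was far smaller (1.54-fold, log2 0.63 ± 0.26 SE, edgeR adjusted p = 0.0428) and passed the test no longer without replicate 1 (0.67, edgeR adjusted p = 0.0513), 4 (0.50, 0.149) or 5 (0.55, 0.12).

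The size of the vestibular difference depended on a cluster led by Tectb and Slitrk6, which carried markers of SCs and of HCs and was set aside. Its 274 cells had a median of 11275 UMIs and held 349.7, 431, 342 and 291 CPM of Mt1, between vHCs and SCs. When such mixed clusters were kept in the class with most markers, Mt1 in SCs rose to 264 CPM on average and the log2 difference was 1.23 for Mt1 (2.35-fold, edgeR adjusted p = 1.12e-05) and 1.05 for Mt2 (2.07-fold, edgeR adjusted p = 0.000116), while that of Mt3 no longer passed (0.42, edgeR adjusted p = 0.0667). Whether these cells are doublets was not tested.

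In the cochlea, SCs held 39.9, 78.7, 15.8 and 3.9 CPM of Mt1. The cHC level was 6.36-fold higher (log2 2.67 ± 0.53 SE, edgeR adjusted p = 0.000369), in a comparison where 45.4% of 5421 genes passed with 20.4% higher and 25.1% lower in cHCs. In every library the cHCs were above the SCs, although the lowest cHC library, 72.4 CPM, lay below the highest SC library, 78.7 CPM. Mt2 did not pass the filter on low counts and has no test. Its cHC libraries, 24.1 to 129 CPM, did not overlap with its SC libraries, 0 to 11.9 CPM. Mt3 was 18.2, 47.5, 6.76 and 0 CPM in SCs and differed by 1.24 on the log2 scale (± 0.60 SE, edgeR adjusted p = 0.10). With the library as a block, since the HCs and SCs of a number come from the same mice, the Mt3 difference was 1.26 (edgeR adjusted p = 0.0115). How far HCs exceeded SCs did not differ between the organs beyond the test's threshold: the log2 interaction, positive where the excess was larger in the cochlea, was -0.19 for Mt1 (95% interval -1.34 to 0.97), 0.72 for Mt2 (-0.52 to 1.96) and 0.55 for Mt3 (-0.78 to 1.87), with edgeR adjusted p of 0.890, 0.499 and 0.656, where 18.5% of 8242 genes passed. With mixed clusters kept, which raised the vestibular SC level, the Mt2 interaction passed (1.91, edgeR adjusted p = 0.0227).

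**Figure D3:**
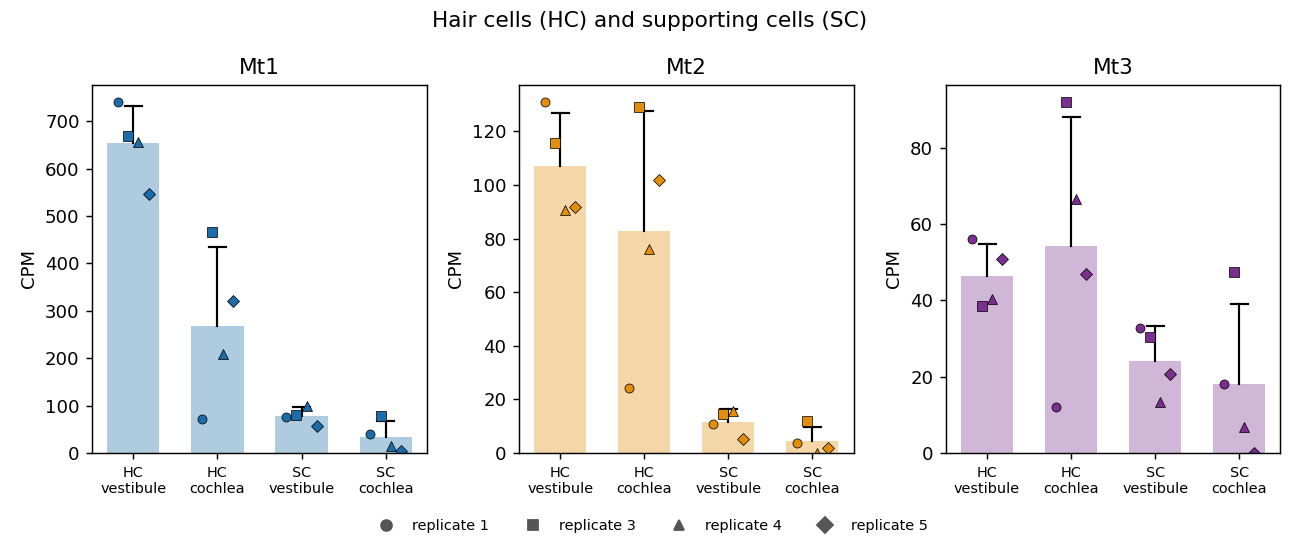
Mt1, Mt2 and Mt3 levels of HCs and SCs of both organs, in CPM, with 1 point per library, bars at the mean and error bars of 1 SD (n = 4). Mt1 was lower in SCs than in HCs in all 8 libraries, for example 76.2 against 739.6 CPM in vestibular replicate 1.

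The share of cells with a UMI gave the same order and showed which levels were near those of T or NK cells. Unthinned, 66.8% of vHCs (median 4048 UMIs) and 18.8% of vestibular SCs (median 2174 UMIs) had a UMI of Mt1, against 8.72% of vestibular T or NK cells (median 2897 UMIs). At 1000 UMIs a cell these shares were 38.3% (36.0 to 40.6%), 7.23% (5.22 to 9.72%) and 3.49% (1.29 to 7.44%). For Mt3 they were 4.44% in vHCs, 1.99% in SCs and 1.74% in T or NK cells. The Mt3 UMIs of vestibular SCs were thus not separated from this reference. In single vestibular libraries T or NK cells held 0 to 52.9 CPM of Mt3. This range overlapped with vHCs (38.6 to 56 CPM) and SCs (13.3 to 32.7 CPM). Their Mt1, 0 to 64 CPM, overlapped with that of SCs (57 to 99.8 CPM) but not with that of vHCs (547 to 739.6 CPM). Mean Mt3 of SCs, 24.3 CPM, lay above that of granulocytes (6.07 CPM) and B lineage cells (0 CPM). In the cochlea the thinned Mt1 share was 23.5% (17.1 to 31.1%) in cHCs, 6.57% (4.97 to 8.48%) in SCs and 11.3% (7.67 to 16.0%) in T or NK cells, which at full depth were 51.6%, 13.6% and 17.0%. For Mt3 it was 9.15% (5.09 to 14.9%) in cHCs and 7.29% (4.38 to 11.3%) in T or NK cells. These cochlear shares pool libraries of unequal weight, as 217 of the 247 T or NK cells but 484 of the 822 SCs came from replicate 3. By library, T or NK cells held 97.0, 118 and 0 CPM of Mt1 in replicates 1, 3 and 5, where SCs held 39.9, 78.7 and 3.9 CPM, so the order of the classes was not the same in every library. Their Mt3 was 0, 83.2 and 0 CPM, where cHCs held 12.1, 91.9 and 46.9 CPM. With 19 and 11 T or NK cells in replicates 1 and 5, a count of 0 allows up to 97.0 and 100.2 CPM, above the cHC levels there, so that the Mt3 of cHCs could not be told from this reference at this depth. Intervals and limits cover counting error only.

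Type I and type II vHCs, which differ in the calyx or bouton nerve endings that contact them, did not separate on any member. Type I HCs (1498 cells) held 722, 648, 645 and 496 CPM of Mt1, and type II HCs (220 cells) held 878, 577, 495 and 576 CPM. The ranges overlapped, and the log2 difference was 0.09 (95% interval -0.25 to 0.43, edgeR adjusted p = 0.826), where 16.3% of 7638 genes passed, or 1889 genes in place of 1244 with the library as a block. For Mt2 the type I mean was 95.5 ± 19.8 CPM and the type II mean 126 ± 59.1 CPM (SD, n = 4), a log2 difference of -0.31 (-0.76 to 0.14, edgeR adjusted p = 0.455). Mt3 was 47.8 ± 9.53 and 39.9 ± 13.9 CPM (log2 0.16, -0.37 to 0.70, edgeR adjusted p = 0.792). These intervals leave room for a change of either sign, but for Mt1 not beyond 0.43 on the log2 scale.

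Between the organs, HCs differed in Mt1. The cHC libraries, 72.4 to 466 CPM, all lay below the vHC libraries, 547 to 739.6 CPM, and the level was 2.13-fold lower in cHCs (log2 cochlea over vestibule -1.09 ± 0.31 SE, edgeR adjusted p = 0.00846), where 30.9% of 7674 genes passed and 18% were lower in cHCs. The call was kept in all 18 alternative settings run for it, from -1.65 without cochlear replicate 3 to -0.80 without cochlear replicate 1. Mt2 did not differ detectably (-0.05, 95% interval -0.57 to 0.48, edgeR adjusted p = 0.930). Mt3 was 0.65 higher in cHCs on the log2 scale (0.04 to 1.25) and did not pass (edgeR adjusted p = 0.123). Without cochlear replicate 1 it passed (0.85, edgeR adjusted p = 0.0170), and without cochlear replicate 3 it was -0.06 (edgeR adjusted p = 0.948).

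The balance of the members in HCs was then read within each library. The ratio of Mt2 to Mt1 UMIs was 0.323 ± 0.0361 in cHCs and 0.164 ± 0.0178 in vHCs (SD, n = 4 each), with ranges of 0.277 to 0.364 and 0.138 to 0.177 that did not overlap. The ratio of Mt3 to Mt1 was 0.207 ± 0.0770 and 0.0720 ± 0.0161, with ranges of 0.146 to 0.318 and 0.0577 to 0.0931 that did not overlap either. The ratios were chosen after the values had been seen and are given with no test. Those of cochlear replicate 1 rest on 6 UMIs of Mt1, 2 of Mt2 and 1 of Mt3. Free RNA enters such a ratio. In cochlear T or NK cells Mt3 over Mt1 was 0.667, but all 36 Mt3 UMIs and 51 of the 54 Mt1 UMIs came from replicate 3, and 0 UMIs of Mt3 against 3 of Mt1 remained without it. The part of free RNA in the cHC ratio was not tested.

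**Figure D4:**
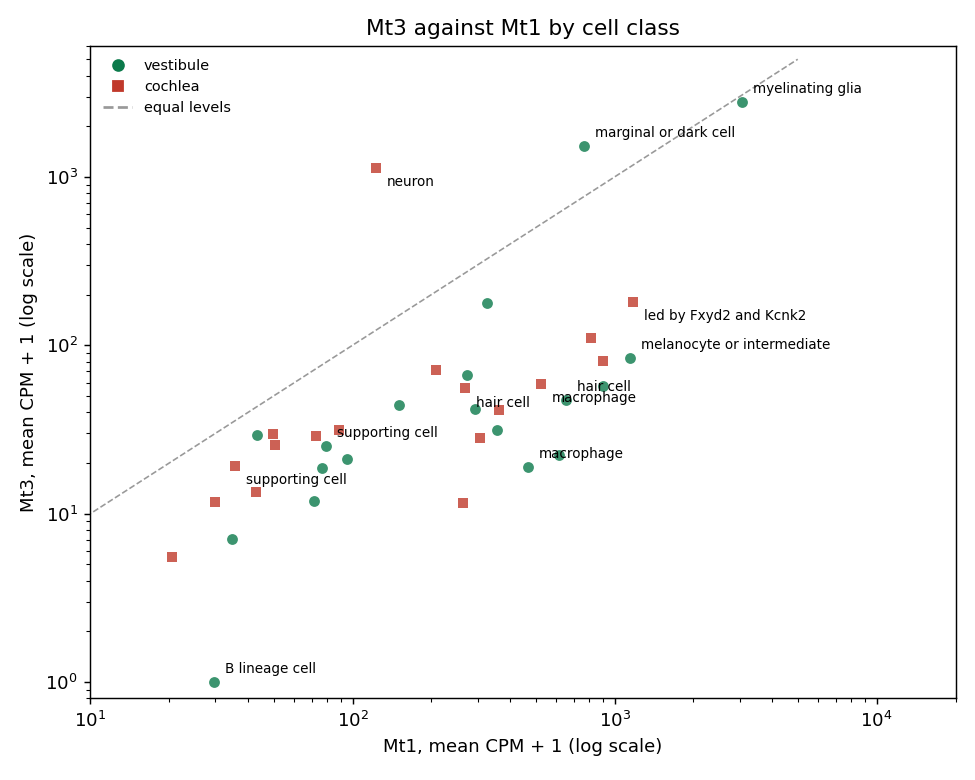
Mean Mt3 against mean Mt1 level of each class in both organs, as mean CPM + 1 on log axes, with 1 point per class and a line of equal levels. Neurons and marginal or dark cells lay above the line, vestibular glia lay near it, and vHCs lay far below it. As ratios of summed UMIs, which are not the means plotted, Mt3 over Mt1 was 0.976 in vestibular glia and 0.0662 in vHCs.

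Mt3 over Mt1, as a ratio of summed UMIs, was 6.13 in cochlear neurons (13.7 without replicate 3), 1.93 in marginal or dark cells, 0.976 in vestibular glia, 0.0662 in vHCs and 0.0237 in vestibular macrophages. Mt2 over Mt1 moved less. Among classes with 3 or more libraries it ran from 0.0499 in vestibular macrophages to 0.401 in vestibular erythroid cells. It was 0.165 in vHCs and 0.291 in cHCs.

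Other classes could be compared between organs where 3 libraries of each held 10 or more cells. In Reissner membrane-type epithelial cells, a thin epithelium bounding the endolymph, Mt1 was 1274, 983, 939.7 and 401 CPM in the cochlea and 279, 239, 492 and 291 CPM in the vestibule. The ranges overlapped through cochlear replicate 5, and the level was 2.93-fold higher in the cochlea (log2 1.55 ± 0.36 SE, edgeR adjusted p = 0.0228), where 3.33% of genes passed. The call was lost without cochlear replicate 3 (1.50, edgeR adjusted p = 0.0699) or vestibular replicate 1 (1.50, 0.0683), 3 (1.41, 0.107) or 5 (1.54, 0.0620), with the direction kept. Mt2 (0.47, edgeR adjusted p = 0.698) and Mt3 (-0.81, edgeR adjusted p = 0.633) did not pass. Whether the cells so named in the vestibule are the same type of epithelium was not tested.

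In SCs, Mt1 was lower in the cochlea by 0.90 on the log2 scale (± 0.43 SE, edgeR adjusted p = 0.123), which did not pass in a comparison where 28.9% of 6188 genes did. It passed, in the same direction, in 5 of 17 alternative settings. These were without cochlear replicate 3 (-2.20, edgeR adjusted p = 0.000392), with no filter on low counts (-0.75, 0.0185), with the replicate block (-0.87, 0.0371), with mixed clusters kept (-2.42, 7.68e-05) and under 10% mitochondrial UMIs (-1.75, 0.00567). In macrophages, phagocytes of the tissue, Mt1 did not differ detectably (0.19, 95% interval -0.62 to 1.00, edgeR adjusted p = 0.899), where 0.919% of genes passed. In erythroid cells Mt3 was 18.4, 192 and 0 CPM in cochlear replicates 1, 3 and 5 and 11.8, 2.99 and 18 CPM in vestibular replicates 3, 4 and 5. The fitted difference of 2.46 passed (± 0.70 SE, edgeR adjusted p = 0.0457), where 6.55% of genes passed, but it rested on cochlear replicate 3 and was -1.62 without it (edgeR adjusted p = 0.740). In T or NK cells no member passed the filter. There 0% of 1424 genes were called, with 50 genes at an unadjusted p under 0.05, and DESeq2 called 0.

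**Figure D5:**
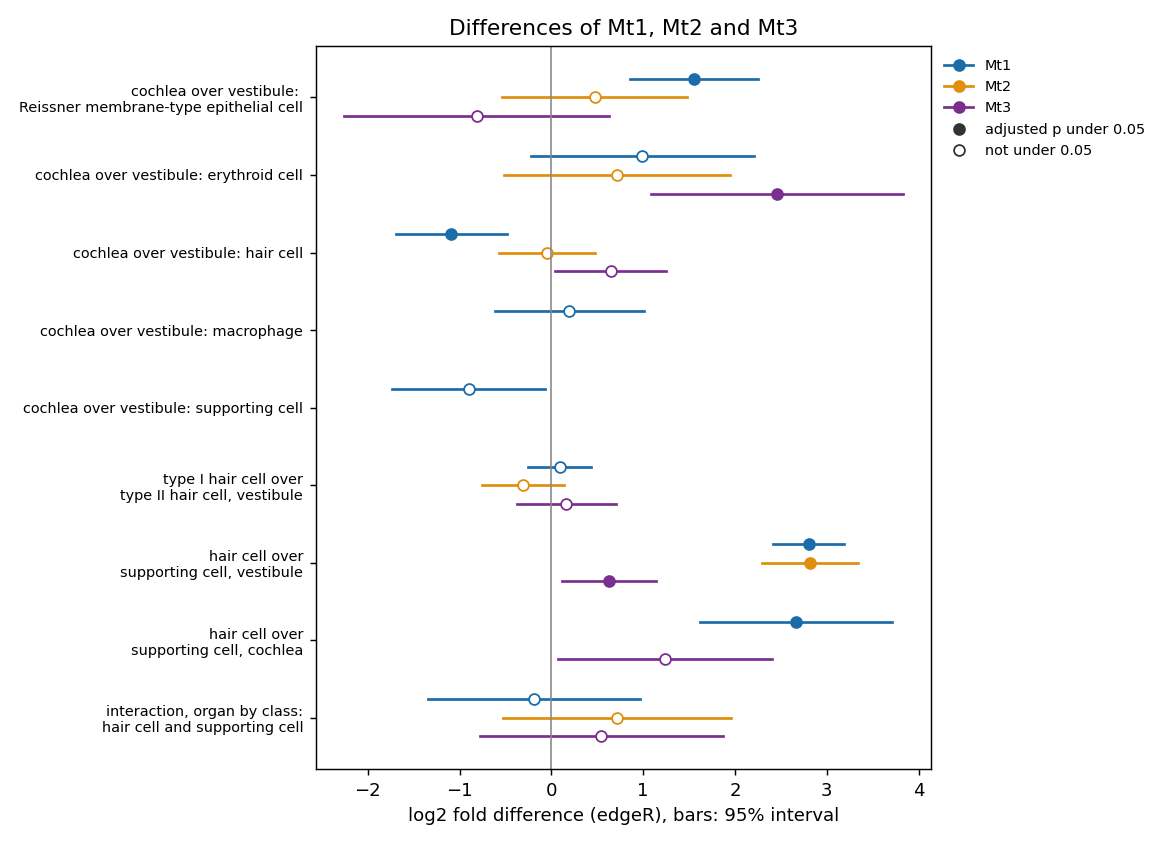
Log2 differences of Mt1, Mt2 and Mt3 in each comparison fitted, with 95% intervals from edgeR, filled points having an adjusted p under 0.05. The differences between HCs and SCs were the largest for Mt1 (2.81 in the vestibule, 2.67 in the cochlea) and Mt2 (2.82 in the vestibule), that for Mt3 was between the erythroid cells of the organs (2.46), and 6 of the 11 intervals between organs spanned 0.

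Genes around metal handling were read from lists, by role. Of the metal-responsive factors, Mtf1, the zinc sensor that binds metal response elements, was 35.9 CPM in vHCs and 9.53 CPM in vestibular SCs (log2 1.73, edgeR adjusted p = 5.11e-05), and 46.3 and 13.5 CPM in the cochlea (1.49, edgeR adjusted p = 0.00402). It was thus higher in HCs in both organs. Between cHCs and vHCs neither Mtf1 (0.35, edgeR adjusted p = 0.442) nor Mtf2 (-0.32, edgeR adjusted p = 0.491), a chromatin protein, passed. Between the HCs of the organs 3 of 9 zinc exporters and 5 of 14 zinc importers could be tested and 0 of either passed, where 30.9% of all genes did. The lowest p among them were those of Slc30a4 (5.78 CPM in cHCs, 26.0 in vHCs, edgeR adjusted p = 0.0726) and Slc39a7 (32.7 and 26.8 CPM, edgeR adjusted p = 0.194). Against SCs, vHCs had 0 of 6 zinc exporters higher and 2 lower, and 2 of 8 zinc importers higher and 4 lower, beside 29.4% higher and 29.5% lower among all genes.

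Of the copper genes, 1 of 5 tested was higher in cHCs than in vHCs and 0 lower, beside 12.9% and 18% among all genes. It was Atox1, the chaperone that brings copper to the secretory pathway, at 237 and 142 CPM (log2 0.85, edgeR adjusted p = 0.00418). Cox17, which carries copper to cytochrome oxidase, was 746 and 559 CPM and did not pass (edgeR adjusted p = 0.146). Atox1 was lower in HCs than in SCs in both organs (-1.30 in each, edgeR adjusted p = 3.14e-07 in the vestibule and 0.000684 in the cochlea). Of 13 thiol and antioxidant genes, 2 were higher and 2 lower in cHCs, close to the shares among all genes (12.9% and 18%), and their median log2 difference was 0.22 against -0.06 for all genes. Txnrd1, the cytosolic thioredoxin reductase, was 65.4 CPM in cHCs and 295 CPM in vHCs (-2.12, edgeR adjusted p = 5.99e-07). Nfe2l2, the factor that acts on antioxidant elements, was 58.4 and 20.6 CPM (1.49, edgeR adjusted p = 0.000304). In vHCs against SCs, 2 of 14 such genes were higher and 5 lower (29.4% and 29.5% among all genes). Among those lower in vHCs was the peroxidase Prdx1, at 310.0 CPM against 1322 CPM (-2.30, edgeR adjusted p = 3.06e-09). In cHCs against SCs, 1 of 12 was higher and 3 were lower (20.4% and 25.1% among all genes).

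Glucocorticoids induce Mt1 and Mt2, and dissociation of tissue induces early genes, so both lists were read beside the members. Of the glucocorticoid list, Sgk1, a kinase that these hormones induce, was 41.7 CPM in cHCs and 166 CPM in vHCs (-1.42, edgeR adjusted p = 0.00162), and Nr3c1, the receptor, was 36.3 and 36.6 CPM (edgeR adjusted p = 0.937). Of the 4 genes of this list tested against SCs, 0 were higher and 3 lower in cHCs, with a median log2 difference of -2.67, and 1 was higher and 1 lower in vHCs, with a median of -0.60. The medians of all genes were -0.03 and 0.04. Among all genes, 20.4% were higher and 25.1% lower in cHCs, and 29.4% and 29.5% in vHCs. In SCs, 3 of the 4 genes of this list tested between the organs were higher and 0 lower in the cochlea, beside 11.9% and 17% among all genes. Their median log2 difference was 1.66, against -0.01 for all genes. Among them Sgk1 was higher in cochlear SCs, at 203 against 35.7 CPM (2.51, edgeR adjusted p = 5.19e-08). Of the dissociation list, Jun was 82.4 and 32.9 CPM in cHCs and vHCs (1.44, edgeR adjusted p = 0.000118), and Egr1 had no UMI in cHCs against 33.4 CPM in vHCs. In SCs all 5 tested early genes were higher in the cochlea, with a median log2 difference of 3.13 against -0.01 for all genes. Among all genes 11.9% were higher there. Against SCs, 0 of 5 early genes were higher and 5 lower in cHCs (20.4% and 25.1% among all genes). In vHCs, 1 of 4 was higher and 1 lower (29.4% and 29.5% among all genes). The part of glucocorticoids and of dissociation in the levels of the members was not tested.

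Over the 37 classes of both organs with 3 or more libraries, the members resembled each other. The Spearman correlation of class means was 0.882 between Mt1 and Mt2, 0.744 between Mt1 and Mt3 and 0.629 between Mt2 and Mt3. Among 6964 genes, those most like Mt1 were Hspa9, a mitochondrial chaperone (0.760), Atp5b, a subunit of ATP synthase (0.747), Syngr1 (0.731), Dusp3 (0.709) and Fnip1 (0.668). Those most like Mt2 were again Hspa9 (0.683) and Atp5b (0.676), followed by Ikzf5, Slc48a1 and Yif1b (0.647, 0.644 and 0.618). Those most like Mt3 included Atp5b (0.683), Cyc1, a subunit of respiratory complex III (0.676), Hspa9 (0.664) and the citric acid cycle enzyme Idh3a (0.638). Classes of an organ share their libraries, and these values are a description of the class means.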

How the data were processed

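Single-cell RNA libraries of the cochlea and the vestibule were analysed. Per the file headers and the submitters' processing notes, the authors aligned reads to mm10 and counted UMIs with Cell Ranger, 5.0.1 in the headers of 4 libraries (replicates 1 and 2) and 6.1.2 in those of 6, and the deposited values are raw UMI counts per gene and barcode, without normalization. Replicates 1 and 2 shared 1313 barcodes in the cochlea and 1633 in the vestibule with counts that agree within sampling noise (chi-square per gene 0.127 and 0.122, against at least 23.8 for other pairs), and were counted as 1 sample. Cells were required to have 200 genes, 1000 UMIs and under 25% mitochondrial UMIs. In Seurat 5.3.0 (R 4.3.3), 2000 variable genes without the metallothioneins and 30 principal components were clustered at resolution 1 for each organ, and HCs again at 0.5. A cluster was named from at least 3 enriched markers of a class (a UMI in at least 25% of cells and a log2 fold of at least 1). Clusters with markers of several classes were set aside, by rules set after the clusters were seen. No doublet caller was run.

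UMIs were summed over each class and library with at least 10 cells, and classes with at least 3 such libraries were tested with edgeR 4.0.16 (TMM, its filter on low counts, 2-sided quasi-likelihood test, Benjamini-Hochberg adjustment over all genes at 0.05). Libraries are pools of mice, and p-values measure the spread between these pools. Cells were thinned to 1000 UMIs for shares, with exact binomial intervals at 95%, while intervals of log2 differences are normal ones from the SE. HC and SC, or type I and type II, sums of a number come from the same library, and their deviations from the group means correlated at 0.109 to 0.307. The main tests left this pairing out, and the block was run only as an alternative. Between the organs the numbers were not taken as pairs, for HCs (0.0386 to 0.119) or SCs (0.0796 to 0.322), as not every value was over 0.1. Inner and outer HCs were not compared, with 1 and 3 libraries. The script for tests was tested on simulated data. Members and gene lists were chosen with earlier results of these data known. From each list the 2 genes with the smallest adjusted p between the HCs of the organs were named, others named were chosen after their values were seen, and the 5 genes most like each member were taken among genes of at least 20 CPM on average (1 of those for Mt3 is not reported here). Alternatives were other normalizations, DESeq2 1.42.0, no filter, a replicate block, other clustering or cell limits, mixed clusters kept, and leaving out each library.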

Additional observations from a re-analysis of the deposited data

Results flagged for a closer look

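In groups of 4 libraries, 84 sets of levels were searched for a library far from the other 3 (Dixon's criterion at 95%), and 4 were found, as many as chance gives in about 1 in 20 groups. Mt1 of vestibular melanocytes or intermediate cells was 2429 CPM in replicate 1, against 639 to 841 CPM, with 69 of 82 UMIs in 1 cell. Mt3 of the same class was 303 CPM in replicate 3, against 0 to 29.6 CPM. Mt3 of type II HCs was 19.3 CPM in replicate 4, against 44.3 to 49.4 CPM. Mt3 of the cochlear cluster led by Otoa and Slc26a4 was 42.5 CPM in replicate 3 and 0 CPM in the other 3 libraries.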

How the results depend on the processing

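Of 338 alternative values of the members' differences, 299 kept their direction and their side of 0.05, 13 lost the call, 10 gained it and 16 changed sign, and 1049 of 1059 levels moved by less than their SD. All differences are log2, cochlea over vestibule or HC over SC. The lower Mt1 of cHCs, the higher Mt1 of HCs against SCs in both organs and the higher Mt2 of vHCs against SCs kept their calls in every alternative in which they could be fitted (18, 14 and 13, and 14 settings). Mt1 of SCs between organs gained a call in 5 of 17, and the Mt2 interaction in 1 of 14.

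With mixed clusters kept (or the HCs set aside included), Mt3 of HCs between organs was -0.055, and with mixed clusters kept Mt1 of SCs between organs was -2.42, Mt3 of vHCs against SCs 0.42, the interaction 0.91 for Mt1 and 1.91 for Mt2, and the vestibular SC levels 264 CPM of Mt1 and 49.8 CPM of Mt2. Under 10% mitochondrial UMIs, Mt3 of erythroid cells was 0.95, Mt1 of SCs between organs -1.75 and the Mt1 interaction 0.54. With no filter on low counts, Mt1 of SCs between organs was -0.75 and Mt3 of cHCs against SCs 1.19. The DESeq2 Wald test gave 1.99 for Mt3 of erythroid cells. With the replicate block, Mt1 of SCs between organs was -0.87 and Mt3 of cHCs against SCs 1.26, and no other call of a member changed. The cause of these moves was not tested.

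Leaving out 1 library at a time, the organ differences ran from -0.59 to 0.15 for Mt2 and -0.061 to 0.85 for Mt3 of HCs, from -2.20 to -0.54 for Mt1 of SCs, from -0.052 to 0.54 for Mt1 of macrophages, from 1.37 to 1.80 for Mt1 of Reissner membrane-type cells, and from -1.32 to 1.37 for Mt1, -6.83 to 1.03 for Mt2 and -1.62 to 2.81 for Mt3 of erythroid cells. The value of -6.83 is set by cochlear libraries at 0 and is no measured fold. Mt1 of type I against type II HCs ran from -0.019 to 0.17, Mt3 of HCs against SCs from 0.50 to 0.95 in the vestibule and from 1.04 to 1.32 in the cochlea, and the Mt1 interaction from -0.65 to 0.55. Calls in cHCs rest on 14 to 81 cells a library, and the part of cell number in them was not tested. The number of genes called moved by over 1.5 times in these settings. For HCs between organs it was 2369 and became 1438 under 10% mitochondrial UMIs. For SCs it was 1788 and became 3175 with no filter, 2685 with the block, 3601 with mixed clusters kept and 1007 under 10% mitochondrial UMIs. For erythroid cells it was 240 and became 513 with no filter, 134 by DESeq2, 901 with the block and 641 with library size only (42 to 862 leaving out libraries). For macrophages it was 24 and became 171, 40 and 14 with no filter, the block and 10% (0 to 67). For Reissner membrane-type cells it was 93, and 396 with no filter (58 to 198). For T or NK cells it was 0, and 17 with no filter and 26 with the block. For type I against type II HCs it was 1244, and 1889 with the block (754 to 1297). For cHCs against SCs it was 2462, and 4093 with no filter and 1341 under 10% (1380 to 3181). For the interaction it was 1523, and 698 under 10% (661 to 1705). Scaling by library size only moved the median of all genes by 0.89 for erythroid cells, where the share of calls higher in the cochlea went from 74.2% to 99.1%, by 0.19 for vHCs and 0.18 for cHCs against SCs, and flipped no member.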

Other observations

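Several clusters had 10 or more cells in a single library only and have no replicate check. In cochlear replicate 3, a cluster led by Mgp and Slc47a1 (169 cells) held 2801 CPM of Mt1 and 338 CPM of Mt2 but 57.4 CPM of Mt3. Its 9 cells of replicate 1 held 11877 CPM of Mt1 and no UMI of Mt3. A cluster led by Dct and Hpse (131 cells) held 1951 CPM of Mt1 and 1394 CPM of Mt3 in replicate 3. Its 8 cells of replicate 5 held 1287 and 2657 CPM, with more Mt3 than Mt1. This cluster was mixed, with 4 markers of melanocytes or intermediate cells and 3 of marginal or dark cells. In vestibular replicate 3, a cluster led by AU040972 and Ccdc153, a gene of motile cilia (104 cells), held 2506 CPM of Mt1 and 9.85 CPM of Mt3, an Mt3 to Mt1 ratio of 0.00393 against 0.714 in the Dct and Hpse cluster of cochlear replicate 3. The 2 cells of the Ccdc153 cluster in each of vestibular replicates 1 and 4 held 1 and 11 UMIs of Mt1. A cochlear cluster led by Mmp12 and Mfge8 held 3549 and 1732 CPM of Mt1 in replicates 1 and 3, on 15 and 35 cells, where 394 of the 704 UMIs of replicate 3 were in 1 cell.

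The share of cells with Mt2 that also had Mt1 was set beside the share of all cells with Mt1. In vHCs thinned to 1000 UMIs, 96 of the 162 cells with an Mt2 UMI (59.3%) also had one of Mt1, against 38.3% of all vHCs. In vestibular glia it was 22 of 25 (88%), against 82.8%, and in cochlear HCs 4 of 15 (26.7%), against 23.5%, both near the share of all cells. It was lower than that share in marginal or dark cells, with 2 of 6 (33.3%) against 40.7%. The same held in vestibular Reissner membrane-type cells, with 1 of 8 (12.5%) against 15.2%. These shares compare cells within libraries and were not tested.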
